A study of Mus musculus with 10 samples.

Results

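Among the cells of the adult mouse supraspinatus enthesis, 208 of 5131 (4.05%, exact binomial 95% interval 3.53 to 4.63) carried transcripts of at least 2 of the genes S100g, Dmkn, Aldh3a1 and Npy. They were selected on the measured UMIs of these genes in the whole-enthesis library of postnatal day 56 (P56), as cells with at least 500 detected genes, at most 10% of counts from mitochondrial genes, at least 1 UMI (a counted molecule) of 2 or more of those genes, and 0 UMIs of Ptprc, Cdh5 and Col22a1. They are called rule cells here. They were compared with the 4012 other P56 cells that had at least 2 UMIs of Col1a2, a collagen I gene of connective tissue cells. The 3 whole-enthesis libraries together held 13479 cells that passed the same filters.

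The study profiled single cells of the supraspinatus tendon enthesis, where this shoulder tendon joins the bone. Whole entheses of wild-type C57BL/6 mice (C57BL/6J in the protocol) were dissected at P11, P18 and P56 and pooled, and live cells without the leukocyte surface protein Cd45 (DAPI excluded dead cells) were sorted after red cell lysis and run in droplets that count the 3′ ends of transcripts, 1 library per age. A further 7 plates came from Gli1CreERT;Ai14 mice at ages from P7 to P42, in which tamoxifen given at P5 and P7 marks cells that express Gli1 and their descendants. The labels leave the use of red fluorescence in the plate sort unclear. With 1 pooled library per age no comparison could be tested over animals, and all intervals below cover counting error only.

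S100g encodes a small calcium-binding protein of the S100 family, best known from intestinal epithelium, where vitamin D raises it. Aldh3a1 is an aldehyde dehydrogenase abundant in the cornea, Dmkn encodes dermokine, a secreted protein of the epidermis, Npy encodes neuropeptide Y, and Clu encodes clusterin, a secreted chaperone. An enthesis passes from tendon fibroblasts through fibrocartilage to bone, so cells that make collagen I lie beside cells that make aggrecan and other cartilage matrix.

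The libraries held 44104990, 53725468 and 40082499 UMIs at P11, P18 and P56, and 2952, 5396 and 5131 of their barcodes passed the filters. Between 4 and 9 barcodes were shared by each pair of libraries, and 1 of the 208 rule cells had a barcode that also occurred at P18. The libraries stood apart in transcripts of the X-inactivation gene Xist, found in 65.4%, 27.4% and 0.083% of Col1a2 cells at P11, P18 and P56 after each cell was thinned to 2000 UMIs. This difference cannot be told apart from age. Rule cells were deeper than the comparison cells, with a median of 8656.5 against 6413.5 UMIs and 2462.5 against 1995.5 genes, and their median mitochondrial share was 3.02% against 3.88%. The S100g-detected and S100g-undetected cells defined below had medians of 8327.5 and 10280 UMIs and held 1607817 and 784567 UMIs in all. Deeper cells have more chances to pass a rule that asks for 2 genes, and the effect of depth on membership is given below by thinning.

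Most rule cells carried mesenchymal transcripts, since 196 of 208 had at least 2 UMIs of Col1a2, but S100g did not mark all of them. Of 8 broad mesenchymal markers, all were abundant enough to test and 0 differed 2-fold between all rule cells and comparison cells, where 0.962% of all tested genes were higher and 2.63% lower. In the 62 cells without S100g, 3 of the 8 (Col1a1, Col1a2 and Lum) were at least 2-fold lower, with a median log2 ratio of -0.77 over the list. S100g itself was found in 146 of 208 rule cells (70.2%), and 62 (29.8%) had none. In the cells that had any, the median was 3 UMIs of S100g and the highest 83, and 37 cells had exactly 1. The 10 cells with the most S100g held 36.4% of its 1326 UMIs. Dmkn was found in 32 rule cells (15.4%), Npy in 67 (32.2%) and Aldh3a1 in 195 (93.8%). Npy and Dmkn were concentrated, since 10 cells held 84.3% of the 1213 Npy UMIs and 10 cells held 82.6% of the 396 Dmkn UMIs.

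Most rule cells entered through a single pair of genes. The pair S100g and Aldh3a1 alone accounted for 129 of 208 cells (62.02%). Next came Aldh3a1 with Npy in 34 cells, Dmkn with both Aldh3a1 and Npy in 12, Dmkn with Aldh3a1 in 10, S100g with both Aldh3a1 and Npy in 8, Dmkn with Npy in 6 and S100g with Npy in 5. The other 4 combinations held 1 cell each. The cells are described below as 146 with S100g (S100g-detected) and 62 without it (S100g-undetected). This split was made after the combinations had been seen. Because each cell needed 2 of the genes, those without S100g had to have the others, so how seldom the genes met within the rule cells is set in part by the rule. A cell without a UMI of S100g may still express it.

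**Figure D1:**
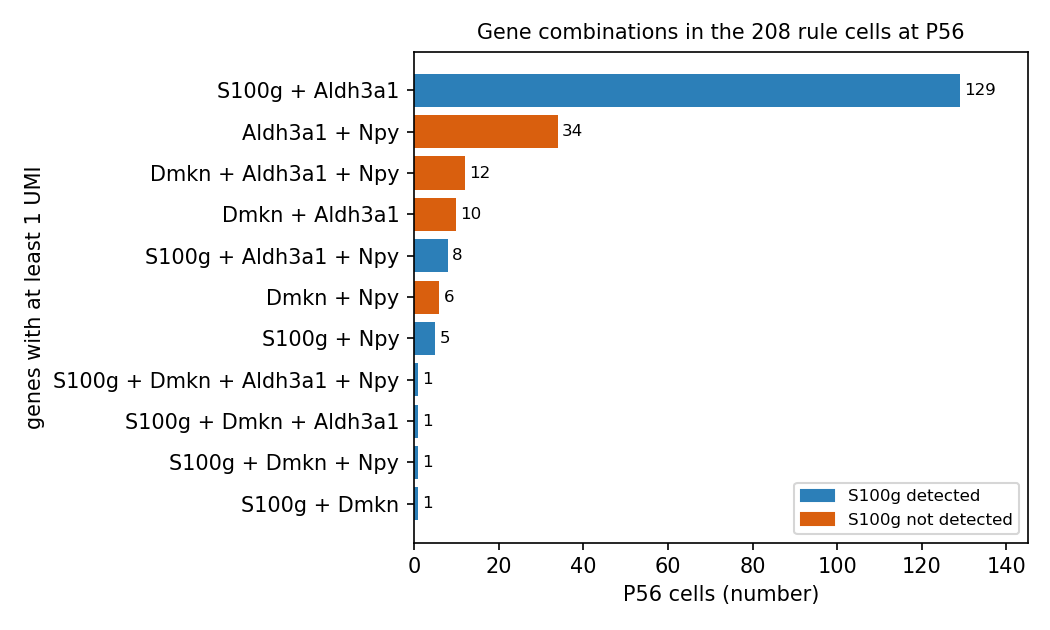
Number of rule cells (x axis) for each combination of rule genes with at least 1 UMI (y axis), blue where S100g is among them and orange where it is not. S100g with Aldh3a1 stands at 129 cells, and each combination of S100g with Dmkn holds 1 cell.

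Pairs of rule genes were also counted over all P56 cells with Col1a2 and none of the excluded genes. Aldh3a1 was found in 131 of 308 cells with S100g (42.5%, interval 36.9 to 48.3) and in 20.2% of 3371 cells without it (18.8 to 21.6). At 2000 UMIs per cell the shares were 18.6% (13.2 to 24.98) and 7.97% (7.09 to 8.93). Npy was found in 20 of 60 cells with Dmkn (33.3%, 21.7 to 46.7) against 2.38% of cells without Dmkn, and in 36.0% against 1.09% at 2000 UMIs. Dmkn was found in 1.30% of cells with S100g (0.355 to 3.29) and in 1.66% of cells without it (1.26 to 2.15), so these intervals overlap. Npy was found in 4.22% of cells with S100g (2.27 to 7.11) and in 2.76% without it (2.23 to 3.37), where the intervals overlap too. In endothelial cells (Cdh5 at least 2 UMIs, Col1a2 under 2, 283 cells with a median of 4855 UMIs), which should lack these genes, S100g and Aldh3a1 were found in 0.353% each and Dmkn in 0 of 283, where 3 counts of the total, taken as the limit, would be 1.06%. Npy was found in 9 of them (3.18%), with a median of 11 UMIs in those 9, against 1.30% of comparison cells. In those 9 cells Npy was therefore counted without mesenchymal marking by Col1a2.

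S100g lies on the minus strand of the X chromosome (X:162961992-162964599, GRCm38, GENCODE M21), inside the span of Ctps2 on the plus strand (X:162901238-163032508). The use of strand in counting is not given in the sources used here, so reads of the 2 genes could not be told apart by it. Ctps2 itself stood at 24.2 CPM (the usual depth-scaled count, the UMIs of a gene relative to all UMIs of the summed cells) in rule cells and 17.6 CPM in comparison cells. Dmkn is at 7:30763756-30781063, Aldh3a1 at 11:61207537-61218421, Npy at 6:49822710-49829507 and Clu at 14:65968483-65981547, all on the plus strand. The 106 bases around the annotated starts of S100g and Npy, 100 before the start and the first 6 after it, are shown because S100g defined 1 set of rule cells and Npy was the gene with the most UMIs among the rule genes of the other (RefSeq, GRCm38.p6, chrX:162964594-162964699 on the minus strand and chr6:49822610-49822715 on the plus strand). They are printed in the direction of transcription, with the motif TATAAA in capitals.
S100g: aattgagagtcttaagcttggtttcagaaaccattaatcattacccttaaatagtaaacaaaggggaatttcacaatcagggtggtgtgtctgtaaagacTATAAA
Npy: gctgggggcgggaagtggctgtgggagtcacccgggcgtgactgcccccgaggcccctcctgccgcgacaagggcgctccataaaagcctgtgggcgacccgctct
TATAAA was searched on both strands. In the S100g window it forms the first 6 bases after the annotated start, and it is absent from the Npy window and from the windows at 3 annotated starts of Dmkn. It occurs in 5.76% of 32851 windows of the same length around RefSeq starts. The 6 bases after the start were added to the windows once the S100g letters had been seen, and a match is a description of the letters alone.

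Rule cells as a whole differed from comparison cells in a small number of genes. Of 7485 genes with a mean of at least 10 CPM over both groups, 72 (0.962%) were at least 2-fold higher and 197 (2.63%) at least 2-fold lower. The median log2 ratio of all tested genes was -0.03. The S100g-detected cells had 35 of 7426 genes at least 2-fold higher (0.471%) and 181 lower (2.44%). The S100g-undetected cells had 287 of 7495 higher (3.83%) and 472 lower (6.3%), with fewer cells and UMIs in all behind each value. Set directly against each other, S100g-detected cells were at least 2-fold higher than S100g-undetected cells in 334 of 7379 genes (4.53%) and at least 2-fold lower in 352 (4.77%). None of these counts leaves out the rule genes or the excluded genes. Where those genes passed the filter, their calls follow in whole or in part from the choice or the split.

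By choice, the rule genes themselves were high. S100g stood at 554 CPM in rule cells and 36.7 CPM in comparison cells, Aldh3a1 at 184 and 39.1 CPM, Dmkn at 166 and 1.77 CPM, and Npy at 507 and 6.75 CPM. These values describe the choice and are no finding. Clu was not used by the rule but is a marker of the label, which was written with these data in view. Clu stood at 2989 CPM in rule cells (interval 2920.2 to 3059) and 1013 CPM in comparison cells, a 2.95-fold difference (2.88 to 3.03). It was found in 174 of 208 rule cells (83.7%) against 62.3% of comparison cells, and in 70.2% against 47.3% at 2000 UMIs per cell, where 42.0% of endothelial cells had a Clu UMI too. Its level was 2460.5 CPM in S100g-detected and 4072 CPM in S100g-undetected rule cells.

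At the threshold of the rule, 871 comparison cells had exactly 1 of the rule genes and none of the excluded genes, and 185 rule cells had exactly 2. Clu stood at 1615 CPM in the former and 2571.5 CPM in the latter, against 889 CPM in 2612 comparison cells with none of them. Acan stood at 17.1 and 111 CPM, and Il33 at 286 and 345 CPM, on the 2 sides of the threshold. The 23 cells with 3 or 4 of the genes had 7071 CPM of Clu, 730 CPM of Acan and 8165 CPM of Cytl1. Another 13 cells had 2 of the genes but were left out, 4 with Cdh5 and 10 with Col22a1.

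The 15 genes named as higher in S100g-detected cells had moderate ratios. Egln3, a prolyl hydroxylase of the hypoxia response, had the largest ratio of the 15. Egln3 stood at 52.2 CPM (41.7 to 64.7) against 12.0 CPM, a 4.34-fold difference (3.38 to 5.51), and was found in 28.8% against 5.71% of cells. Rspo1, a secreted enhancer of Wnt signalling, stood at 82.7 against 31.3 CPM (2.64-fold, 2.19 to 3.17). Il33, an alarmin cytokine kept in the nucleus, stood at 408 CPM (377 to 440) against 190 CPM (2.15-fold, 1.98 to 2.33). It was found in 58.9% of S100g-detected cells (50.5 to 67.0), 19.4% of S100g-undetected cells (10.4 to 31.4) and 24.8% of comparison cells at 2000 UMIs per cell. At that depth the S100g-detected interval for Il33 lies above both other shares.

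The other 12 genes named as higher in S100g-detected cells ranged from 2.07-fold (Vgll3, a transcriptional cofactor) to 3.04-fold (4933400C23Rik). They were Cox4i2, a lung-type subunit of cytochrome oxidase, Atp6v0a4, a proton pump subunit, Uaca, Nfasc, Oplah, Nrn1, Krt80, Tlr4, the receptor for bacterial lipopolysaccharide, Car5b, a mitochondrial carbonic anhydrase, and Tmem154. Of the 12, 4933400C23Rik, Nfasc, Oplah and Tmem154 were under 10 CPM in comparison cells. They passed the filter on low genes through the S100g-detected cells alone. Egln3, Atp6v0a4 and Uaca differed less than 2-fold between the 2 sets of rule cells, at 52.2 and 73.9 CPM for Egln3, 71.5 and 86.7 CPM for Atp6v0a4 and 82.1 and 89.2 CPM for Uaca. Rspo1 was 8.11-fold higher (4.00 to 19.2) and Il33 2.08-fold higher (1.74 to 2.49) in S100g-detected than in S100g-undetected cells.

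Lower in S100g-detected cells were Naalad2, a peptidase, with 1 UMI in 146 cells against 25.5 CPM in comparison cells, and Postn, the matrix protein periostin, at 35.5 against 203 CPM. Sparcl1 stood at 57.8 against 280 CPM, Fgl2 at 79.0 against 342 CPM, Tnfaip6, a hyaluronan-binding protein of inflammation, at 155 against 585 CPM, and Ptx4 at 27.4 against 134 CPM. Gnai1, Irgm1, Sult1a1 and Chodl were the other named genes, between 3.78-fold and 8.68-fold lower. The comparison cells may contain Ptprc, Cdh5 or Col22a1, and 529 of 4012 did. Without those 529 cells the ratio of all rule cells to comparison cells was 0.463 for Postn, where the full comparison gave 0.146, and 0.222 for Sparcl1, where it gave 0.152. Postn, Ptx4 and Chodl are leading genes, with Col22a1, of a cluster (cluster 2 below) of 449 comparison cells and 0 rule cells. Because the rule excludes Col22a1, their low levels may be set in part by the choice.

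Some genes of cartilage were high in the S100g-undetected cells. Of 8 chondrocyte markers 4 passed the filter on low genes there, Acan and Hapln1 through the S100g-undetected cells alone, so their calls as higher are given as values and support no count. Acan, which encodes aggrecan, stood at 488 CPM in S100g-undetected, 12.4 CPM in S100g-detected and 7.98 CPM in comparison cells. Sox9, the master transcription factor of cartilage, stood at 328, 111 and 54.0 CPM, Hapln1, the link protein of aggrecan, at 65.0, 1.87 and 3.18 CPM, and Col2a1, cartilage collagen, at 61.2, 0.622 and 26.5 CPM. A single comparison cell held 624 of the 839 Col2a1 UMIs of that group, so its level there is mostly that of 1 cell. Without the 529 comparison cells above, 0 of 3 tested chondrocyte markers were called higher in S100g-detected cells. Matn1, Matn3 and Col9a1 had 0 UMIs in the S100g-undetected cells. The summed level of the 8 chondrocyte markers was 944, 128 and 96.0 CPM in the 3 groups. In the 44 S100g-undetected cells outside cluster 18 (a cluster described below) Acan stood at 248 CPM, Sox9 at 237 CPM, Col2a1 at 38.6 CPM and Hapln1 at 16.8 CPM, against 4.86, 53.0, 4.10 and 1.65 CPM in the comparison cells outside it.

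The genes highest in S100g-undetected cells outside the lists were led by Cytl1, a secreted cytokine-like protein of cartilage, at 5245 CPM (5086 to 5408) against 57.6 CPM in comparison cells, 91.1-fold higher. Spp1, osteopontin, stood at 6725 against 224 CPM and 1500015O10Rik at 13354 against 408 CPM. Tnfrsf11b, osteoprotegerin, the decoy receptor that limits osteoclasts, stood at 446 against 37.3 CPM and was found in 71.0% of S100g-undetected cells against 12.4% of comparison cells. Trpv4, a cation channel that chondrocytes use to sense load, stood at 43.3 against 4.10 CPM. The others named by the rule were Meltf, Lgr6, Fxyd3, 3110079O15Rik, Clec3a, Scrg1, Eps8l2, Cdo1, Susd5 and Sbsn, between 7.22-fold (Sbsn) and 80.8-fold (Meltf) higher. Of these, all but Sbsn were under 10 CPM in comparison cells, as was Trpv4. They passed the filter on low genes through the S100g-undetected cells alone, so their ratios are given as values. Meltf had 28 UMIs in S100g-undetected and 14 in comparison cells. Most UMIs of Cytl1, Spp1, 1500015O10Rik and Fxyd3 came from the 18 S100g-undetected cells of cluster 18. Those cells held 3482 UMIs of Cytl1, 4907 of Spp1, 10219 of 1500015O10Rik and all 71 of Fxyd3. In the other 44 cells Cytl1 stood at 1062 CPM, Spp1 at 619 CPM, 1500015O10Rik at 433 CPM and Fxyd3 at 0, against 41.4, 58.3, 298 and 1.11 CPM in comparison cells outside the cluster. The difference in 1500015O10Rik was thus under 2-fold there. In the S100g-detected cells Cytl1 stood at 299 CPM, but 412 of its 480 UMIs there were in 1 cell, and Spp1 stood at 136 CPM, below the comparison level. The 1 S100g-detected cell of cluster 18 held 181 of the 219 Spp1 UMIs. Of the 7109 Spp1 UMIs of comparison cells, 5273 were in cluster 18. Outside it Spp1 stood at 23.8 CPM in S100g-detected and 58.3 CPM in comparison cells.

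**Figure D2:**
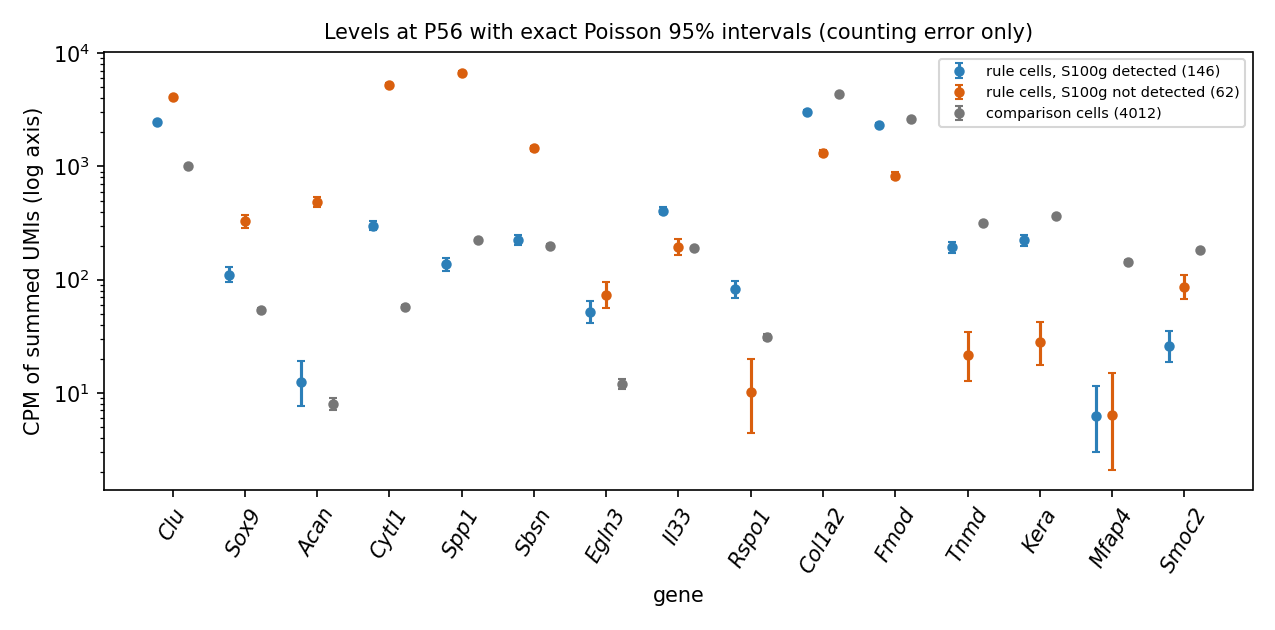
Summed level in CPM (log y axis) of 15 genes (x axis) in S100g-detected rule cells (blue), S100g-undetected rule cells (orange) and comparison cells (grey), with exact Poisson 95% intervals that cover counting error only. The comparison cells were chosen on Col1a2. Acan, Cytl1 and Spp1 are highest in the orange group, Rspo1 and Il33 in the blue group, and Mfap4 is near 6 CPM in both against 144 CPM in grey.

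Tendon genes divided the sets the other way. Of 6 tendon fibroblast markers, 4 were called lower in S100g-undetected cells and 0 in S100g-detected cells. Of all tested genes 6.3% and 2.44% were lower in these sets. Tnmd, tenomodulin, stood at 21.7 CPM in S100g-undetected, 193 CPM in S100g-detected and 317 CPM in comparison cells. Kera, keratocan, stood at 28.0, 222 and 363 CPM, Fmod, fibromodulin, at 830, 2325 and 2627 CPM, and Thbs4 at 784, 2352 and 2844 CPM. Tnmd was 8.93-fold (5.49 to 15.5) and Kera 7.92-fold (5.15 to 12.8) higher in S100g-detected than in S100g-undetected cells. Clusters 9, 18 and 7, described below, held most S100g-undetected cells. In their comparison cells Tnmd stood at 86.3, 49.7 and 6.91 CPM. Over all rule cells the Tnmd ratio was 0.433, and 1.13 with the comparison cells weighted by cluster. Col1a1, a chain of collagen I, stood at 1055 CPM in S100g-undetected and 3058 CPM in S100g-detected cells. The comparison cells were chosen on Col1a2, the other chain, so their collagen I levels were raised by the choice.

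Of 6 markers of lining-type fibroblasts, such as those of joint surfaces, 4 were higher in S100g-undetected cells. Of all tested genes 3.83% were higher in those cells. Prg4, lubricin, stood at 7951 CPM in S100g-undetected, 3292 CPM in S100g-detected and 3155 CPM in comparison cells. Among the S100g-undetected cells 10 held 67.4% of the 6238 Prg4 UMIs. The 19 rule cells of cluster 18, of which 18 were S100g-undetected, held 2822 Prg4 UMIs and stood at 13936 CPM. Htra4 stood at 269, 41.1 and 32.3 CPM, Hbegf, a growth factor, at 599, 184 and 188 CPM, and Crabp2, a retinoic acid binding protein, at 271, 70.3 and 118 CPM. Crabp2 is a leading gene of cluster 7 (described below), which held 17.7% of S100g-undetected and 5.48% of S100g-detected cells. The part of cluster makeup in these levels was not tested. In S100g-detected cells 0 of 6 were higher and 1, Clic5, was lower (14.3 against 37.0 CPM).

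Some lists were low in both sets of rule cells, where 2.44% (S100g-detected) and 6.3% (S100g-undetected) of all tested genes were lower. Of 10 basement membrane genes, 6 were called lower in S100g-detected and 8 in S100g-undetected cells, with median log2 ratios of -1.13 and -1.64. Col4a1, a chain of collagen IV, stood at 134 CPM in S100g-detected, 49.7 CPM in S100g-undetected and 302 CPM in comparison cells, and Nid1, nidogen, at 37.3, 24.2 and 134 CPM. Without the 529 comparison cells, 3 and 7 of 10 were called. Of the elastic fibre genes, 4 of 10 tested were lower in S100g-detected and 6 of 11 in S100g-undetected cells, and without those comparison cells 4 of 10 and 7 of 11. Mfap4, a microfibril protein, stood at 6.22, 6.37 and 144 CPM in S100g-detected, S100g-undetected and comparison cells, and Mfap2 at 6.84, 3.82 and 45.3 CPM. Of the interstitial fibroblast markers, Smoc2 stood at 26.1, 86.7 and 183 CPM, and 2 of 6 were lower in S100g-detected and 5 of 6 in S100g-undetected cells. Pi16, the name gene of a widespread perivascular fibroblast, stood at 4.35, 17.8 and 41.2 CPM, while the other 7 genes of that list were not called in either set.

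Secreted inflammatory and complement genes separated the sets, beside 6.3% (S100g-undetected) and 2.44% (S100g-detected) of all tested genes lower. Of 9 tested chemokine and prostaglandin genes, 7 were lower in S100g-undetected cells, while 2 of 10 were lower in S100g-detected cells (Ptgs2 at 9.33 against 89.4 CPM and Cxcl14 at 85.2 against 188 CPM, or 4 of 10 without the 529 comparison cells). Ccl2, a monocyte chemokine, stood at 1500.2 CPM in S100g-detected, 289 CPM in S100g-undetected and 1153 CPM in comparison cells. Ccl11, eotaxin, had 1 UMI in the S100g-undetected cells (1.27 CPM) and stood at 72.1 and 139 CPM in the other 2 groups. Of the complement list, Clu was the gene called higher in both sets. In S100g-undetected cells 5 of 9 tested were lower, among them C4b, at 48.4, 351 and 236 CPM in S100g-undetected, S100g-detected and comparison cells, and the inhibitor Serping1, at 464, 1483 and 1112 CPM. Il6 had 3 UMIs in the S100g-undetected cells (3.82 CPM) against 151 CPM in comparison cells.

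Lists tied to the rule genes themselves were counted against the same background of 0.471% higher and 2.44% lower for S100g-detected cells and 3.83% and 6.3% for S100g-undetected cells. Lists of so few genes can hold 0 called genes at those shares. Of the S100 family, 8 genes other than S100g were tested and S100b was the one called, at 99.4 CPM in S100g-undetected, 18.0 CPM in S100g-detected and 14.3 CPM in comparison cells. The 18 S100g-undetected cells of cluster 18 held 58 of its 78 UMIs, the other 44 stood at 33.6 CPM, and without cluster 18 S100b was called in the S100g-undetected cells but no S100 gene over all rule cells. S100a6 stood at 9302 CPM in all rule cells and 8307 CPM in comparison cells. Of the calcium transport and vitamin D list 3 of 10 genes were abundant enough to test and 0 were called. Trpv5, Trpv6, Calb1, Slc8a1 and Cyp24a1, partners of S100g in gut and kidney or targets of vitamin D, had 0 UMIs in the rule cells, and Vdr, the vitamin D receptor, stood at 2.09 CPM against 3.22 CPM. Of the aldehyde and peroxide list, 0 of 9 tested genes other than Aldh3a1 were called in S100g-detected cells. In S100g-undetected cells Gpx3, an extracellular peroxidase, was higher, at 800 against 217 CPM, and 2 were lower. Of the NPY receptors, Npy2r and Npy5r had 0 UMIs in rule cells and Npy1r had 0.418 CPM. Of 13 immediate-early and stress genes, which rise when tissue is digested, 0 were called in all rule cells, and the list summed to 9855 CPM against 9770 CPM in comparison cells. Of 6 nuclear hormone receptors tested in rule cells, 0 were called.

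**Figure D3:**
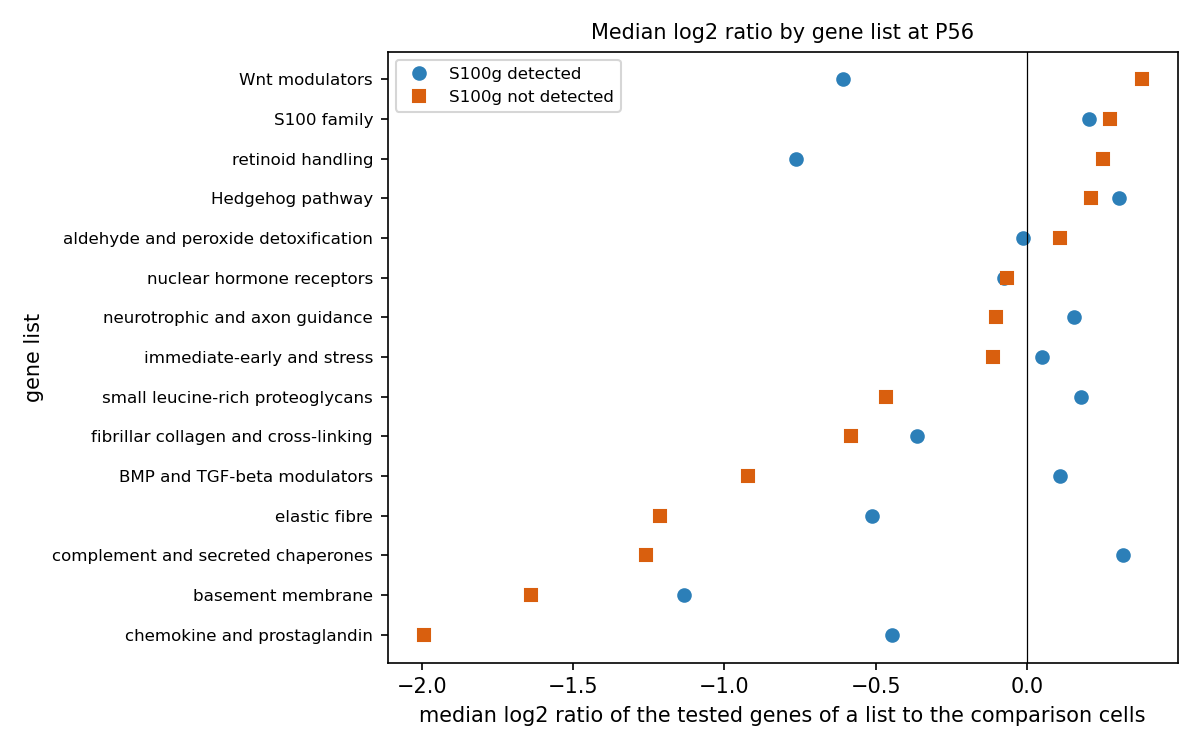
Median log2 ratio to the comparison cells (x axis) over the tested genes of each list other than rule genes (y axis), for S100g-detected (blue circles) and S100g-undetected (orange squares) rule cells, for lists with at least 5 tested genes in both. Basement membrane is low in both, at -1.13 and -1.64, and complement lies at 0.32 in blue and -1.26 in orange.

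Marker lists of other cell types ranged from 0 to above the comparison level in the rule cells. The rule itself asked for 0 UMIs of Cdh5 and Ptprc, so low endothelial and immune levels are in part fixed by the choice. The summed level of 6 endothelial markers was 2.51 CPM against 51.4 CPM in comparison cells, with Kdr, Egfl7 and Cldn5 at 0, and that of 7 immune markers 2.93 against 8.42 CPM. All 4 adipocyte markers had 0 UMIs. The keratinocyte markers summed to 53.1 CPM against 36.3 CPM in comparison cells, with Sfn called higher (20.9 against 8.48 CPM) and Krt5 and Krt14 at 0. Sfn passed the filter on low genes through the rule cells alone. The 9 perineurial markers summed to 74.0 against 57.4 CPM, and to 112 CPM in S100g-undetected cells, where Perp was called higher (63.7 against 20.8 CPM), with Cldn1, Krt19, Mpzl2 and Tenm2 at 0 in all rule cells. Mural markers summed to 138 against 431 CPM and skeletal muscle markers to 18.4 against 165 CPM. Osteoblast markers summed to 61.4 against 87.0 CPM, with Bglap at 0.418 and Ibsp at 53.1 CPM in rule cells. Most Ibsp UMIs of the rule cells, 123, were in the 19 rule cells of cluster 18, which stood at 607 CPM. In the S100g-undetected cells osteoblast markers summed to 177 CPM and Schwann markers, which include S100b, to 119 CPM against 40.5 CPM in comparison cells, with Sox10 at 0. The part of such cells in the values of the rule cells was not tested.

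Clustering of all 5131 cells without the rule genes spread the rule cells over 12 of 21 clusters. Cluster 9 held the most, 55 of 208 (26.4%), and with fewer clusters at resolution 0.5 in place of 1 the fullest one held 111 of 208 (53.4%). Cluster 9, led by Egln3, Atp6v0a4, Sbsn, Sox9 and Clu, had 34 S100g-detected and 21 S100g-undetected rule cells among its 314 cells. Cluster 6, led by Fgf9, Atp6v0a4, Clu, Pla2g5, Chad and Rspo1, had 51 rule cells, 46 of them S100g-detected. Cluster 3, led by Nr4a1, Myoc and Ccl7, had 34, 29 of them S100g-detected. Cluster 7, led by Crabp2, Cyp21a1 and Uchl1, had 19, of which 11 were S100g-undetected. Clusters 4, 5, 1, 0 and 10 held between 3 and 9 rule cells, and clusters 11 and 13 held 1 each.

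**Figure D4:**
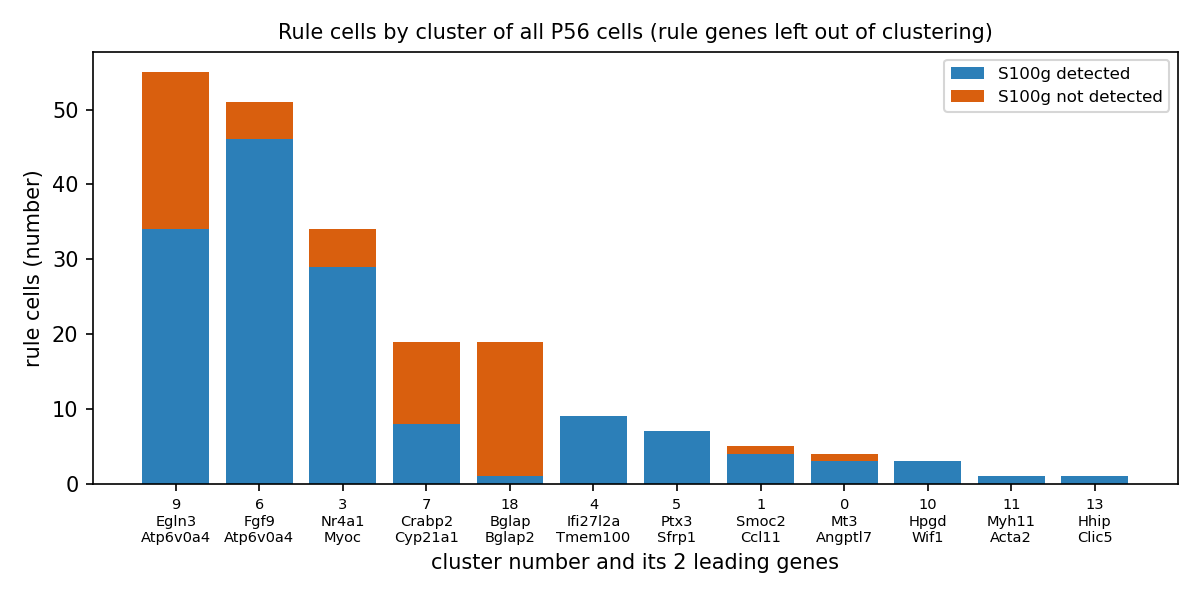
Number of rule cells (y axis) in each cluster that held any (x axis, cluster number with its 2 leading genes), split by S100g-detected (blue) and S100g-undetected (orange). Clusters 9 and 6 hold 55 and 51 cells, and cluster 18 holds 1 blue and 18 orange cells.

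S100g transcripts were spread over several clusters. S100g was found in 22.01% of the cells of cluster 6, 19.1% of cluster 9, 12.4% of cluster 3, 10.4% of cluster 5 and 8.997% of cluster 4. No S100g UMI was counted in the 451 cells of cluster 2, whose leading genes include Col22a1, Postn and Chodl. The summed level of S100g was 313 CPM in cluster 9, 204 CPM in cluster 6, and 96.0, 98.2 and 95.3 CPM in clusters 3, 4 and 5. Rule cells had more Clu than the comparison cells of their own cluster, in the 3 clusters that held the most. In cluster 9 Clu stood at 4836 CPM (4639 to 5039) in rule cells and 3328 CPM (3236 to 3423) in comparison cells. In cluster 6 it stood at 4236 and 3235 CPM, and in cluster 3 at 747 and 416 CPM. Il33 in cluster 9 stood at 445 CPM (386 to 509) and 505 CPM (469 to 543), and in cluster 6 at 493 (432 to 559) and 458 CPM (430 to 488), so within these clusters the intervals overlap. In cluster 3 Il33 stood at 232 CPM (195 to 273) in rule cells and 144 CPM (133 to 156) in comparison cells, where the median depth was 15154 against 8753 UMIs.

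Cluster 18 held 41 cells, led by Bglap, Bglap2, Ibsp, Spp1, Col2a1 and Cytl1, and 19 of them (46.3%, 30.7 to 62.6) were rule cells, 18 of these S100g-undetected. It had 4 of 8 chondrocyte and 4 of 6 osteoblast markers high and is left unnamed. Its rule cells differed from its other 22 cells. Bglap, osteocalcin of mature osteoblasts, had 1 UMI in the rule cells and stood at 5918 CPM in the others, but 1 comparison cell held 806 of the 1368 Bglap UMIs of all comparison cells. Alpl, the mineralising phosphatase, stood at 4.94 against 643 CPM. Cytl1 stood at 19230 CPM (18631 to 19844) in the rule cells and 2384 CPM in the others, Clu at 9082 against 1650 CPM, Prg4 at 13936 against 1997 CPM, and Acan at 1205 against 465 CPM. Spp1 was similar in both, at 25127 (24441 to 25827) and 25250 CPM (24606 to 25908). Other chondrocyte markers did not all follow Acan. Sox9 stood at 622 CPM in the rule cells and 191 CPM in the others, but Hapln1 at 212 and 213 CPM. Col2a1 stood at 128 and 3091 CPM, and 1 comparison cell held 624 Col2a1 UMIs.

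These 19 cells held much of what the full set of 208 appeared to share. They contributed 3894 of the 4595 Cytl1 UMIs, 5088 of 5495 Spp1 UMIs, 10360 of 11105 UMIs of 1500015O10Rik and 244 of 403 Acan UMIs. Over all rule cells Cytl1 was 33.4-fold and Spp1 10.2-fold higher than in comparison cells, and without cluster 18 the ratios were 7.73 and 3.19. Without cluster 18 Acan was still 14.9-fold, Clu 2.40-fold, Sox9 2.66-fold and Egln3 4.74-fold higher in rule cells.

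When the comparison cells were weighted to the cluster makeup of the rule cells, 25 of 7407 genes were at least 2-fold higher and 43 lower. The rule genes were among the 25, with Cytl1 (5.93-fold), Acan (3.37-fold), Htra4 (2.63-fold), Hbegf (2.31-fold) and Sbsn (2.19-fold). Clu was then 1.81-fold, Sox9 1.79-fold, Egln3 1.86-fold, Il33 1.25-fold and Rspo1 1.22-fold higher. Spp1 had a ratio of 1.13, Postn of 0.677 and Sparcl1 of 0.549, so these 3 no longer differed 2-fold. Ptgs2 and Mfap4 were 4.72-fold and 3.74-fold lower, and Bglap, whose UMIs in the comparison cells were mostly those of 1 cell, was lower too. Among cartilage and bone genes Col2a1 was 13.3-fold, Alpl 15.5-fold and Ibsp 7.34-fold lower. Most Col2a1 UMIs of the comparison cells were also in 1 cell. This weighting was chosen after the clusters had been seen, and it uses clusters built from the same genes.

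The same rule found few cells at the earlier ages. There were 10 of 2952 cells at P11 (0.339%, 0.163 to 0.622) and 11 of 5396 at P18 (0.204%, 0.102 to 0.364). At P11, 7 of the 10 had Dmkn with Aldh3a1 and 3 had Aldh3a1 with Npy. At P18 all 11 had Aldh3a1 with Npy. None of these 21 cells at P11 and P18 had S100g. After thinning to 2000 UMIs the rule found 1 of 2888, 1 of 5071 and 58 of 4917 cells (1.18%, 0.897 to 1.52) at P11, P18 and P56.

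The 4 rule genes had different courses over age in Col1a2 cells. At 2000 UMIs per cell S100g was found in 0.045% of cells at P11 (up to 0.252), 0.077% at P18 (up to 0.427) and 5.06% at P56 (4.37 to 5.82). Its summed level was 0.268, 0.757 and 77.5 CPM. Aldh3a1 was found in 2.49%, 3.30% and 8.51% of cells, and Dmkn in 0.091%, 0.077% and 0.691%. The share of cells with Npy did not follow this course. Npy was found in 0.136% of cells at P11, 2.38% at P18 (1.62 to 3.36) and 1.33% at P56 (0.980 to 1.75), so the P18 and P56 intervals overlap. The summed level of Npy was instead highest at P56, at 1.19, 19.8 (17.6 to 22.2) and 44.0 CPM (41.7 to 46.5) at the 3 ages. At P56 a single rule cell held 576 Npy UMIs. Acan stood at 402, 947 and 19.7 CPM in the Col1a2 cells of the 3 ages, and Cytl1 was likewise highest at P18, at 537 CPM against 193 CPM at P56. Libraries of different ages also differed in Xist, as given above, and its part in these values was not tested.

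**Figure D5:**
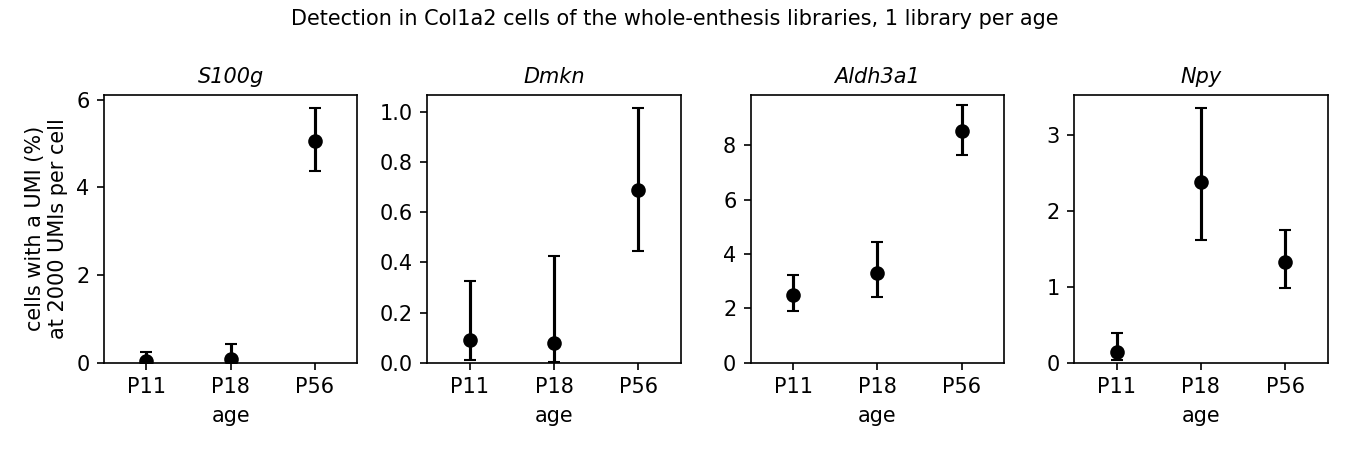
Share of Col1a2 cells with a UMI of each rule gene at 2000 UMIs per cell (y axis, percent, a separate scale for each gene) at P11, P18 and P56 (x axis), 1 library per age, with exact binomial 95% intervals. S100g is at 5.06% at P56 and below 0.1% before, whereas the Npy share is largest at P18.

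The Gli1-lineage plates held almost no such cells. Of 647 wells that passed the filters, 2 met the rule, 1 at P7 and 1 at P18. S100g was found in 5 wells, 1 at P18, 3 at P21 and 1 at P28, Dmkn in 1, Npy in 7 and Aldh3a1 in 47 (7.26%). The oldest plate, P42, had 0 of 86 wells with S100g, where the same limit of 3 counts is 3.49%. Plate counts may be reads rather than molecules, the median well held between 2283 and 4876 counts, and no plate of P56 was analysed here, so plates and droplets were not compared.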

How the data were processed

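Single cells of the mouse supraspinatus enthesis were measured in 3 droplet libraries (P11, P18, P56) and 7 plates. The authors deposited raw counts of UMIs per gene and cell, made with software version 3.1.0 (P11, P18) and 3.0.2 (P56) per the file headers and build mm10 per the submitters' processing notes. The aligner, annotation and use of strand are not given in the sources used here, nor whether plate counts are reads or UMIs. Of 31053 gene IDs, 30934 matched GENCODE M21.

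Members, gene lists and comparisons were chosen with earlier results of these data known. UMIs were summed over the cells of a group and given as CPM with exact Poisson 95% intervals. Shares have exact Clopper-Pearson intervals, shares of 0 a limit of 3 counts of the total, and ratios exact conditional binomial intervals, all for counting error only. With 1 library per age, no test was possible. A gene was tested for a 2-fold difference where the mean of both groups was at least 10 CPM, and called where it reached that fold. Where 1 group had 0 UMIs the ratio used a floor of 3 counts. Named genes were the label's markers, the lists' members, and outside the lists the 15 highest and 10 lowest by the interval bound nearest 1, with a UMI in at least 10% of cells of the higher group. Ribosomal and mitochondrial genes were left out of those.

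All P56 cells were clustered on 2000 variable genes without the 4 rule genes (30 principal components, 15 neighbours, Leiden resolution 1). Automatic doublet calling marked 3 of 5131 cells (0.0585%) and was not usable, so doublets were kept, and the highest scores (0.8% per 1000 cells, 211 cells) were removed as an alternative. In simulated counts for rule against comparison cells (7473 genes, 200 changed 4-fold), 100 raised and 83 lowered genes were recovered with 2 false calls. The counts were Poisson draws from the summed comparison cells, without any spread between cells or animals. The 2 false calls therefore do not measure the share of false calls in the data. Alternatives changed the cell filters, the rule, the scaling, the depth, the comparison cells, the filter on low genes and the cluster resolution. Python 3.11.15, numpy 2.4.6, scipy 1.17.1, pandas 2.3.3, scanpy 1.11.5, leidenalg 0.10.2 and matplotlib 3.10.9 were used.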

Additional observations from a re-analysis of the deposited data

How the results depend on the processing

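No paired analysis was possible because P56 is a single pooled library and nothing in the labels links it to another by number. The number of cells that met the rule was 208. It was 23 with at least 3 of the 4 genes, 1126 with at least 1, 163 without Npy, 58 when cells were thinned to 2000 UMIs before the rule, and 146 when S100g itself was required. The number of genes at least 2-fold higher and lower (72 and 197) became 545 and 1050 with at least 3 of the 4 genes, 123 and 314 with means of per-cell CPM, 294 and 493 after thinning, 27 and 58 at a mean of at least 50 CPM, 1109 and 1034 with no filter, 16 and 59 at 4-fold, and 25 and 43 with the comparison weighted by cluster. The number of tested genes, 7485 in the main setting, changed too. It was 7399 after thinning, 2571 at a mean of at least 50 CPM and 13888 with no filter. At a mean of at least 50 CPM the shares were 1.05% higher and 2.26% lower, against 0.962% and 2.63%. Cells with S100g detected had 35 higher and 181 lower. The other settings, among them stricter cell filters, doublets removed and trimmed mean scaling, stayed within 1.5 times of both counts. The largest share of rule cells in 1 cluster was 26.4%, and 53.4% at resolution 0.5. Over 14 gene ratios and 17 settings, 122 of 238 values moved by less than the counting interval, 114 by more, and 2 changed direction. Spp1 had a ratio of 0.608 in S100g-detected cells, and Tnmd a ratio of 1.13 with the comparison weighted by cluster. The settings of a mean of at least 50 CPM, no filter and 4-fold leave every ratio as it was by construction. Trimmed mean scaling multiplies all ratios by the same factor. The 122 therefore include values that could not move, and they do not measure how stable the ratios are. The alternatives without cluster 18, with S100g required, at 4-fold, weighted by cluster, and without comparison cells holding Ptprc, Cdh5 or Col22a1 were chosen after seeing the data. Apart from alternatives that change the cells or genes used by construction, the cause was not tested. The 62 S100g-undetected cells were limited by their number, not by depth per cell, and genes with few UMIs by both.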

Other observations

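Sbsn, a gene of the epidermis like Dmkn, lies 7622 bases from Dmkn on chromosome 7 and was at 1442 CPM in S100g-undetected, 223 CPM in S100g-detected and 200 CPM in comparison cells. Krtdap, which lies 6833 bases from Dmkn, had 0 UMIs in rule cells. Npy was also found outside the rule cells, in 32.0% of the 50 cells of cluster 17, led by Ccl21a and Lyve1 of lymphatic endothelium, and in 14.5% of the 55 cells of cluster 16, led by Myod1, Asb5 and Pax7 of muscle stem cells.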
